A study of Mus musculus with 36 samples.

Results

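Whole bladders of mice given corticosterone (CORT) were compared with those of mice given vehicle at the time label 20 h, across all measured genes. The comparison holds 6 of the 36 libraries of the series: 3 of CORT and 3 of vehicle, chosen by treatment and time label alone. All animals were C57BL/6 and all, the vehicle controls included, had undergone bilateral adrenalectomy, the removal of both adrenal glands and thereby of the main source of corticosterone. The treatment tag reads CORT in the first group and vehicle in the second. A protocol text shared by all samples says that the hormone was given at inactive timing after recovery from surgery. The labels give no time zero, so 20 h is a position on the label clock and not a known number of hours after a dose. They also do not say whether the 3 replicates of a group came from separate mice, so the p-values reflect only the scatter among these libraries, which may be technical. The replicate 3 libraries carry no time tag; their time comes from the title. The shared extraction text speaks of whole blood and globin removal, whereas every source is given as whole bladder. The series title names its question as glucocorticoid control of the bladder clock and of the daily micturition pattern.

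The molecular clock of mammalian cells is a loop in which the activators BMAL1 (encoded by Arntl) and CLOCK switch on the Per and Cry genes through E-box elements, and PER and CRY proteins then repress the activators. A side loop runs through Nr1d1 and Nr1d2, which encode the repressors REV-ERBα and REV-ERBβ, and through ROR activators, all acting on Arntl. DBP and its relatives TEF and HLF carry the rhythm to output genes through D-box elements, where NFIL3 acts against them. Corticosterone binds the glucocorticoid receptor (Nr3c1), which induces Per1, Tsc22d3 and Fkbp5 among others, and the adrenal rhythm of the hormone is a known timing signal for clocks in peripheral tissues.

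To show what lies upstream of the clock genes discussed here, the 250 bases before the annotated start of 3 of them are printed from the RefSeq promoter table (build GRCm38.p6), 5′ to 3′ on the gene's own strand, with the E-box CACGTG in capitals. Nr1d1 (chr11:98775378-98775627, minus strand) was the clock gene whose 20 h value stood highest in CORT relative to vehicle, and Per1 (chr11:69098699-69098948, plus strand, the first of 2 listed starts) and Cry1 (chr10:85185055-85185304, minus strand) were those whose values stood lowest with no overlap between groups.
Nr1d1: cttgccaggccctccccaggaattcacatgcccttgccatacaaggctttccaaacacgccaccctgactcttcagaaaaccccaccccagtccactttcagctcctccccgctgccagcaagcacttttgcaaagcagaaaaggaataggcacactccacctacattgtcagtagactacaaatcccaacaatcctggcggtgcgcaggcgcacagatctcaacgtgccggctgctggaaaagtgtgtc
Per1: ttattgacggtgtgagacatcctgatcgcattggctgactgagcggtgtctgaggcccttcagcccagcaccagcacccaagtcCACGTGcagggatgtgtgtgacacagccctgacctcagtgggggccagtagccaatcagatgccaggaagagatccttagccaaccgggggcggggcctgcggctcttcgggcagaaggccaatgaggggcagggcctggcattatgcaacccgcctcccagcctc
Cry1: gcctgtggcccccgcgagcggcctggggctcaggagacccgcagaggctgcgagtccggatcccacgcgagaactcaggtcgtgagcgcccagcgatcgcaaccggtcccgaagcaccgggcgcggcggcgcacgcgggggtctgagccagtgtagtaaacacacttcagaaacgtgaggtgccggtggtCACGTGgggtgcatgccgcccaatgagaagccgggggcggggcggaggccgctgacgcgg
The E-box is found in the Per1 window, beginning at position -166 from the start, and in the Cry1 window at -60, and is not found in the Nr1d1 window. A scan of both strands found the E-box in 6.02% of 32851 promoter windows of this length. The D-box letters TTATGTAA and TTACGTAA, present in 0.931% of windows, the REV-ERB/ROR letters TAGGTCA and TGGGTCA, present in 5.38%, and the glucocorticoid response core ACANNNTGT, present in 5.84%, were not found in these 3 windows. Such matches are a description of the letters in these windows and no evidence of binding.

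Values throughout are the authors' normalized read counts per gene, placed on 1 quantile scale for both treatments, and differences are log2 of the value plus 1, CORT minus vehicle, with the standard error of a limma model over all 36 libraries. Each group has a library with a conflicting name, and vehicle has libraries that stand apart. The deposited tables of genes selected by the authors give both replicate 2 libraries of 20 h another name: the library called vehicle 20 h replicate 2 in the full tables stands there as CORT 8 h, and CORT 20 h replicate 2 stands as vehicle 8 h. In all, 8 replicate 2 libraries carry such a second name. The names of the full tables are used here, and values without both replicate 2 libraries are given where a result rests on them. For Nr1d1, vehicle replicate 2 had 212, beside 178 and 212 in vehicle replicates 1 and 3 of 20 h. Replicates 1 and 3 of CORT 8 h had 1009 and 1556. CORT replicate 2 had 570, beside 594 and 659 in CORT replicates 1 and 3 of 20 h. Replicates 1 and 3 of vehicle 8 h had 2122 and 1960. Under the second names, vehicle 8 h replicate 2 at 1860 and CORT 8 h replicate 2 at 485 take their places. Which naming is right was not tested. The other matter is that vehicle replicates 2 and 3 held transcripts known from hepatocytes, the main cells of the liver. The summed value of 15 hepatocyte genes, listed after the data were seen, was 12032 in vehicle replicate 2 and 5050 in replicate 3, against 44.1 in vehicle replicate 1 and 99.0, 18.6 and 35.2 in CORT replicates 1 to 3. Those are the highest sums of all 36 libraries; in the 30 libraries of other times the sum ran from 15.5 to 3073 with a median of 54.5. Albumin (Alb), the main plasma protein made by the liver, had values of 5603 and 2344 in these libraries and 5.81 in vehicle replicate 1, and 35.5, 0.194 and 0 in CORT.

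**Figure D1:**
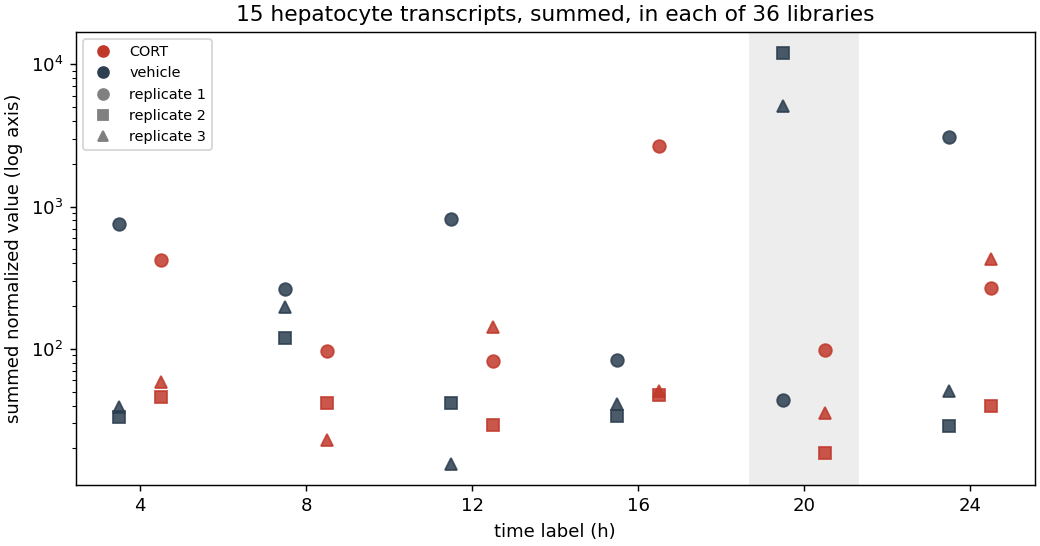
Summed normalized value of 15 hepatocyte transcripts (log axis) in each of the 36 libraries by time label, with 20 h shaded; colours mark the treatment and shapes the replicate number. Vehicle 20 h replicates 2 and 3, at 12032 and 5050, lie above every other library, while vehicle replicate 1 and the 3 CORT libraries of 20 h lie between 18.6 and 99.0.

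The bladder's own cell types were present in every library. Summed over 21 urothelial markers (uroplakins, keratins and their regulators), values ran from 106942 to 112017 in vehicle and from 117998 to 136200 in CORT. The 10 smooth muscle markers summed to between 361648 and 412966 in the 6 libraries. Of 7 prostate and seminal vesicle markers, 6 were at 0 in all 6 libraries, and the sum did not exceed 1.11. In bulk RNA a lower value can come from fewer cells of a type or from less RNA per cell, and these cannot be told apart.

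Of 49585 features, 17867 were tested. None passed an adjusted p of 0.05 at 20 h (0.0% called, limma with Benjamini-Hochberg adjustment), and 1073 (6.01%) had an unadjusted p under 0.05, of which 573 (3.21%) were higher and 500 (2.8%) lower in CORT. The same test called 29 features at 4 h (0.162%), 142 at 8 h (0.795%), 8 at 12 h (0.0448%), 2 at 16 h (0.0112%) and 6 at 24 h (0.0336%). At 20 h the count depended on the fit. With only the 6 libraries of 20 h, 9 features passed, of which Nr1d1 was the sole feature with a mean value above 10; with libraries weighted by their quality, 21 passed. Without vehicle replicate 1, 55 passed (0.309%), 49 of them lower in CORT.

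Nr1d1, which encodes the clock repressor REV-ERBα, stood out among the clock genes. Its normalized values were 594, 570 and 659 in CORT replicates 1 to 3 and 178, 212 and 212 in vehicle. All CORT libraries lay above all vehicle libraries, with little spread in either group. The means were 607 ± 46.0 and 201 ± 19.8 (SD, n = 3 each), a ratio of 3.03, and the log2 difference was 1.59 ± 0.34 (95% interval 0.89 to 2.30). Across all genes this did not pass in the fit over 36 libraries (limma, adjusted p = 0.154). It passed in the fit on the 6 libraries of 20 h alone (adjusted p = 0.0467) and with library weights (adjusted p = 0.0372). Without both replicate 2 libraries the difference was 1.68, and against vehicle replicate 1 alone, the vehicle library of 20 h with the lowest hepatocyte sum, it was 1.76. With the second names of the selected-gene tables it was 0.48. The gene lies at chr11:98767932-98775333 on the minus strand (mm10, GENCODE vM21).

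The Nr1d1 difference took either sign over the day. CORT minus vehicle was -0.65 at 4 h, -1.11 at 8 h, -2.47 at 12 h, -0.03 at 16 h and 1.00 at 24 h on the log2 scale; of these only the 12 h value passed (limma, adjusted p = 0.00225). The 20 h difference exceeded the mean of the other 5 by 2.25 ± 0.38, which passed across all features (limma, adjusted p = 0.0297). Of 17867 features, 3 passed this test (0.0168%), and 583 (3.26%) had an unadjusted p under 0.05. By group mean, vehicle was at its lowest Nr1d1 value of the 6 times at 20 h, whereas CORT was at its lowest at 12 h. The call depended on single libraries: it held without vehicle replicate 1 (limma, adjusted p = 0.0236), but with any CORT library of 20 h or vehicle replicate 2 or 3 left out, the excess stayed between 2.19 and 2.29 but its adjusted p was between 0.107 and 0.213. With the second names of the selected-gene tables the excess was 1.09 ± 0.84 (limma, adjusted p = 1.0).

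**Figure D2:**
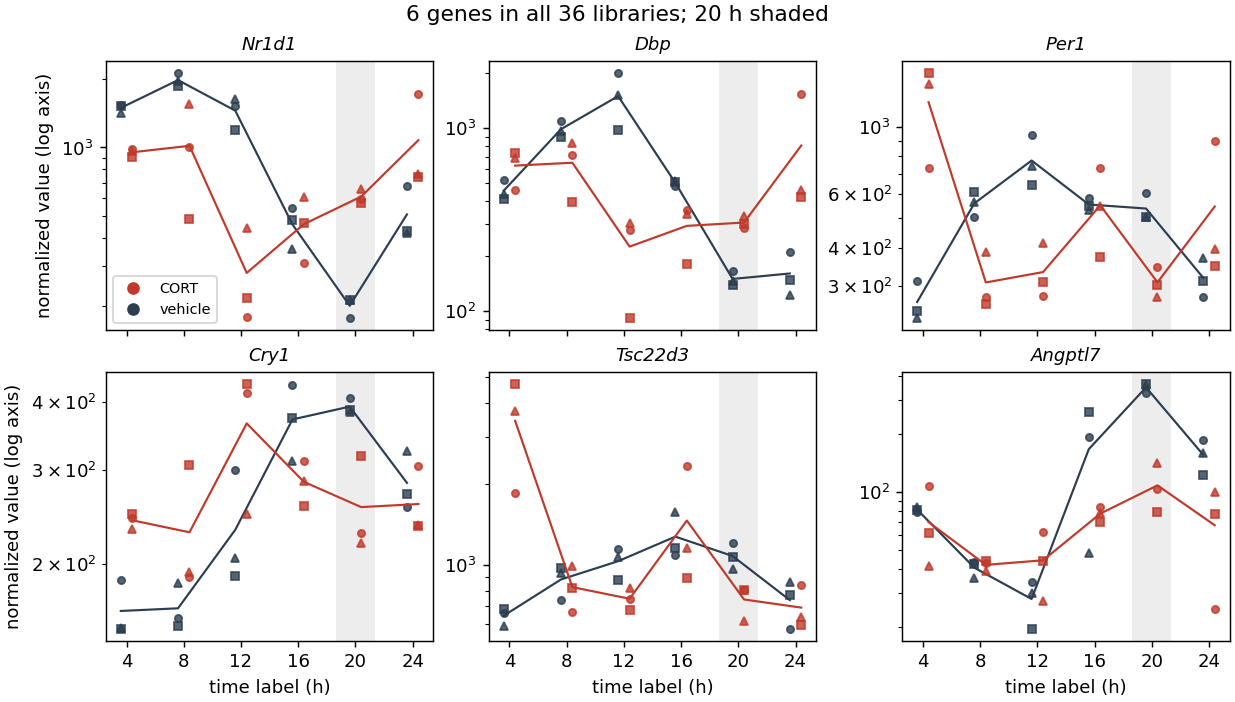
Normalized value (log axis) of 6 genes in all 36 libraries by time label, vehicle in dark blue and CORT in red, with lines through group means and 20 h shaded; marker shapes are the replicate numbers. At 20 h the 3 CORT libraries lie above the 3 vehicle libraries for Nr1d1 and Dbp and below them for Per1, Cry1, Tsc22d3 and Angptl7.

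Dbp, a D-box activator and direct output of the clock, had values of 285, 301 and 332 in CORT and 166, 139 and 146 in vehicle. The groups did not overlap, and the ratio of means was 2.03. The log2 difference of 1.02 ± 0.41 did not pass (limma, adjusted p = 0.732). It was 0.98 without both replicate 2 libraries and 0.26 with the second names. Nr1d2, the paralogue of Nr1d1, had values of 1818, 1390 and 1357 in CORT and 1199, 1055 and 943 in vehicle, again without overlap, and its difference of 0.51 ± 0.20 did not pass. It was 0.33 against vehicle replicate 1 alone and 0.29 with the second names. Tef, at 1354, 1561 and 1381 against 1208, 1147 and 1199, and Bhlhe41, an E-box repressor, at 313, 360 and 397 against 279, 309 and 283, were also higher in every CORT library; their differences were 0.27 ± 0.23 and 0.29 ± 0.25, and 0.10 and 0.09 with the second names.

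Per1, a clock repressor that is also a direct target of the glucocorticoid receptor, had values of 346, 302 and 275 in CORT and 604, 506 and 506 in vehicle. Every CORT library was below every vehicle library. The ratio of means was 0.571 and the log2 difference -0.81 ± 0.28, which did not pass (limma, adjusted p = 0.669). It was -0.84 without both replicate 2 libraries and -0.97 with the second names. Cry1, which encodes the partner repressor of the PER proteins, had values of 229, 318 and 219 in CORT and 408, 387 and 384 in vehicle. These groups did not overlap either, and the difference was -0.64 ± 0.20 (limma, adjusted p = 0.558). CORT replicate 2 lay closest to the vehicle values; without both replicate 2 libraries the difference was -0.82, and with the second names -0.22. Per2 had values of 404, 373 and 427 in CORT and 542, 501 and 520 in vehicle, with a difference of -0.38 ± 0.26, and of -0.24 with the second names.

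Among the activators the groups overlapped with all libraries. Arntl had values of 168, 283 and 195 in CORT and 251, 273 and 299 in vehicle, and the overlap came from CORT replicate 2. Its difference was -0.38 ± 0.36 (limma, adjusted p = 0.924), -0.59 without both replicate 2 libraries, where the groups did not overlap, and -0.14 with the second names. Clock ran from 1919 to 2191 in CORT and from 2006 to 2064 in vehicle, a difference of 0.04 ± 0.09. Npas2, which can stand in for Clock, and the ROR genes Rora and Rorb overlapped as well, with differences between -0.31 and -0.03. Of the other repressors, Per3, Cry2, Ciart and Bhlhe40 overlapped; Ciart, which encodes a small repressor of CLOCK and BMAL1, had values of 3.89, 7.36 and 11.3 against 2.86, 5.31 and 0.944 and rests on few reads. Hlf and Nfil3 overlapped at differences of -0.13 ± 0.44 and 0.01 ± 0.32.

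**Figure D3:**
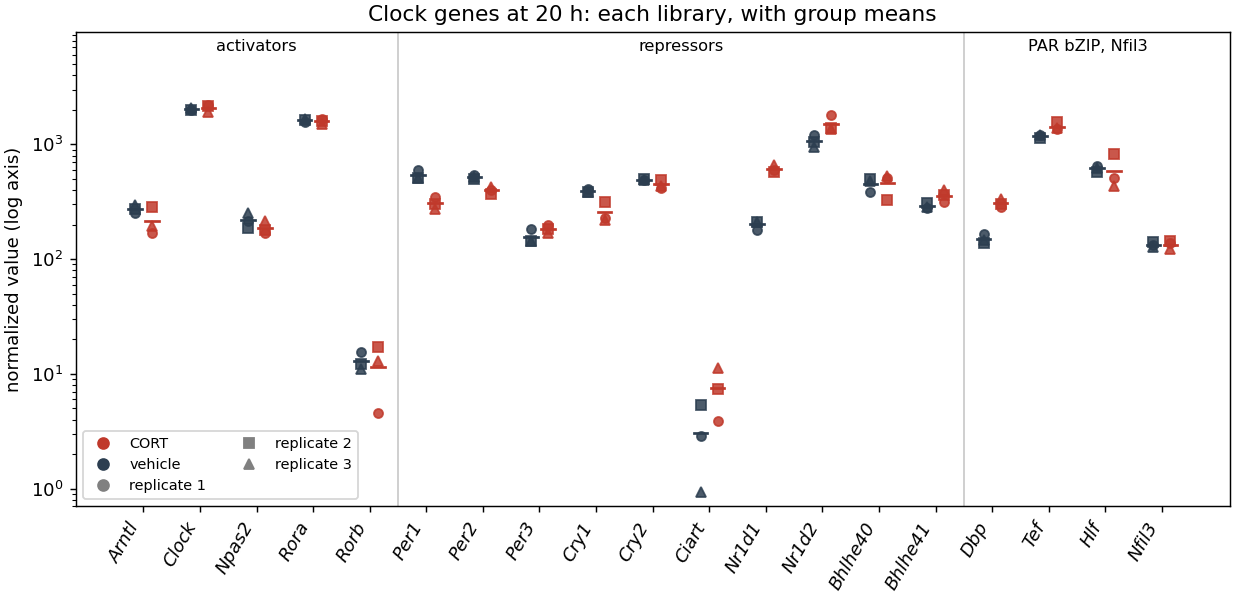
Normalized values (log axis) of 19 clock genes in the 6 libraries of 20 h, vehicle in dark blue and CORT in red, with a line at each group mean and marker shapes for the replicate number. The widest gap is that of Nr1d1, at means of 607 in CORT and 201 in vehicle, whereas Clock, Rora and Nfil3 lie together.

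In counts, none of the 5 activators described, 10 repressors and 4 output genes passed at 20 h. Of the repressors, 3 were higher and 3 lower without overlap, and of the output genes 2 were higher; over all features 8.55% were higher without overlap and 6.05% lower. The list medians were -0.21, 0.11 and 0.14 against 0.04 over all features. Of the activators 2 were lower without overlap once both replicate 2 libraries were left out, where 14.9% of all features were. The repressor median was 0.23 without both replicate 2 libraries and -0.02 with the second names, and the activator median was -0.06 with the second names. Setting neighbouring times beside 20 h, the repressor median was -1.20 at 12 h, -0.35 at 16 h and 0.87 at 24 h. For Dbp the difference was -2.85 at 12 h (limma, adjusted p = 0.00225), -0.84 at 16 h and 2.08 at 24 h. For Per1 it was 2.13 at 4 h (limma, adjusted p = 0.000293), -1.22 at 12 h, -0.06 at 16 h and 0.66 at 24 h. No feature passed in the test of the 20 h against the 16 h difference (0.0% called, 568 or 3.18% at an unadjusted p under 0.05) or the 24 h difference (0.0% called, 632 or 3.54% at an unadjusted p under 0.05). The 12 h and 24 h comparisons use other libraries than the 20 h comparison.

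Classic targets of the glucocorticoid receptor were not higher in CORT at 20 h. None of 22 passed, none was higher without overlap, and 4 were lower without overlap: Tsc22d3, Klf9, Errfi1 and Per1. Over all features 8.55% were higher and 6.05% lower without overlap. Against vehicle replicate 1 alone, 4 had all CORT libraries above it and 8 below it, where 23% and 20.5% of all features did. Tsc22d3, which encodes the anti-inflammatory leucine zipper protein GILZ, had values of 808, 801 and 616 in CORT and 1200, 1066 and 965 in vehicle. Its difference was -0.54 ± 0.28 (limma, adjusted p = 0.856), against 2.31 at 4 h (limma, adjusted p = 0.000117). Klf9, a glucocorticoid-induced repressor of transcription, had 1225, 1280 and 1291 against 1359, 1766 and 1849. Errfi1, a feedback inhibitor of the EGF receptor, had 600, 512 and 455 against 720, 1234 and 880 and was named after its values were seen. Fkbp5, a chaperone that restrains the receptor, overlapped at 429, 586 and 616 against 462, 772 and 653; its difference of -0.20 ± 0.33 was 0.22 against vehicle replicate 1 alone. The list median was -0.19 at 20 h and 1.09 at 4 h; at 20 h it was -0.16 without both replicate 2 libraries and 0.01 against vehicle replicate 1 alone. The receptor gene Nr3c1 overlapped as well, with values of 2399, 2177 and 1760 in CORT and 2362, 2085 and 1995 in vehicle. Among 17 immediate early genes, which answer stimuli within minutes, 2 were lower without overlap, the nuclear receptor genes Nr4a1 and Nr4a3, against 6.05% of all features. Their list median was -0.82, but -0.18 without both replicate 2 libraries, -0.10 against vehicle replicate 1 alone and -0.23 with the second names.

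The genes with the smallest p higher in CORT were mostly of moderate level, and none passed. Besides Nr1d1, the 12 were Gm15834, Cntnap3, Pir, Pdf, Gm684, Naip5, Gm13657, Tfb1m, Park2, L3hypdh and Rprm, with differences from 0.33 to 1.69 and adjusted p from 0.152 to 0.416. Cntnap3, which encodes a neurexin-family cell adhesion protein, had values of 43.4, 41.2 and 53.4 in CORT and 27.0, 13.5 and 18.4 in vehicle, a difference of 1.23 ± 0.25 (limma, adjusted p = 0.152). It was 0.74 against vehicle replicate 1 alone and 0.82 with the second names. Pir, which encodes pirin, an iron-binding nuclear protein, had 267, 202 and 238 against 174, 138 and 157, a difference of 0.58 ± 0.12, and of 0.30 with the second names. Lack of overlap was part of the rule that chose these genes. Park2, the ubiquitin ligase parkin, had 98.8, 109 and 92.9 against 67.7, 75.2 and 55.5. Naip5, an inflammasome sensor of bacterial flagellin, had 120, 107 and 94.1 against 68.8, 59.4 and 48.8; it has near-identical copies, so its reads may be shared with them. Tfb1m and Pdf both act in mitochondria, on the ribosomal RNA and on the first residue of new proteins, and their differences were 0.60 ± 0.15 and 0.86 ± 0.19. In the mitochondrial genome itself, all 13 protein genes had positive differences with a median of 0.27, none passed and 2 were higher without overlap (mt-Atp6 and mt-Cytb), against 8.55% of all features. The median was 0.14 against vehicle replicate 1 alone and 0.41 without that library. It took either sign at the other times: -0.38 at 4 h, 0.06 at 8 h, 0.02 at 12 h, -0.15 at 16 h and 0.19 at 24 h.

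**Figure D4:**
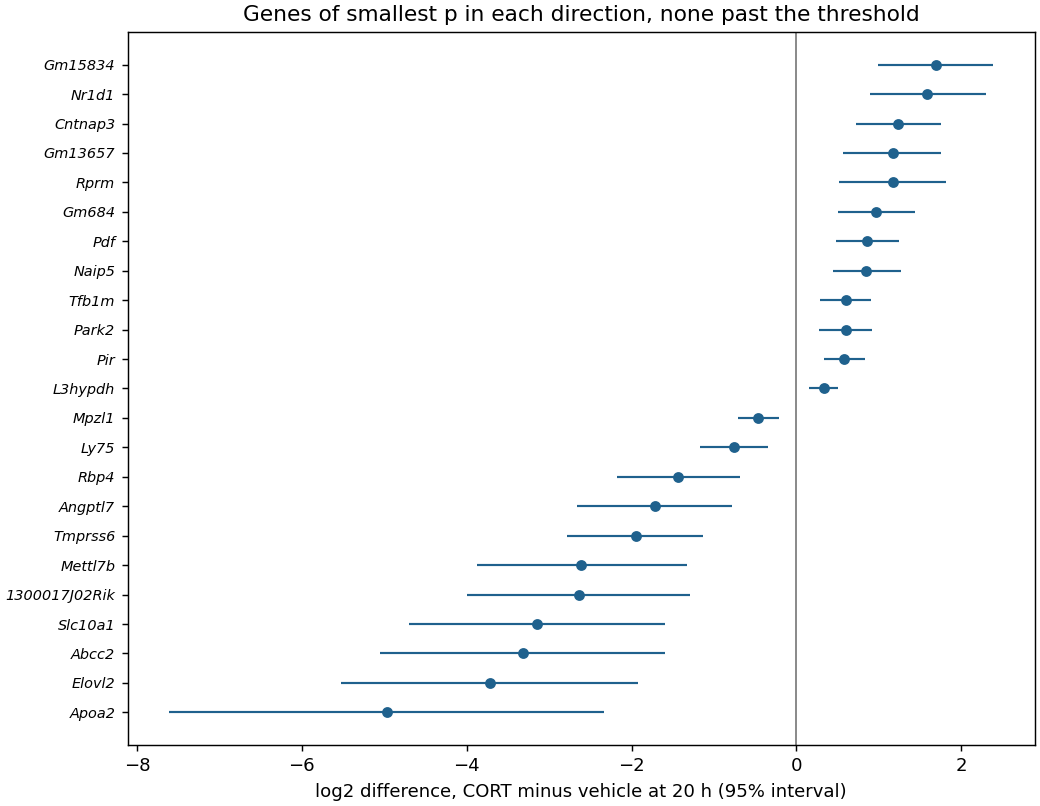
Log2 difference, CORT minus vehicle at 20 h, with 95% intervals for the genes of smallest p in each direction whose groups do not overlap; H2-Q10, listed at 0 in all CORT libraries, is not drawn. Intervals of the higher genes are narrow, while those of the liver transcripts Apoa2, Elovl2 and Abcc2 span several log2 units; none passed the threshold across all features.

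On the lower side, the 12 genes of smallest p were H2-Q10, Tmprss6, Elovl2, Mettl7b, Slc10a1, 1300017J02Rik, Rbp4, Abcc2, Apoa2, Mpzl1, Ly75 and Angptl7. Most are known from the liver: Slc10a1 is the bile acid importer of hepatocytes, Abcc2 an exporter into bile, Apoa2 a lipoprotein and Tmprss6 a protease of iron control. In 10 of the 12, vehicle replicate 1 was the lowest and replicate 2 the highest of the vehicle libraries, as for the hepatocyte sums, and in 7 replicate 2 was over 5 times replicate 1. The order also held where these libraries lay close, as for Angptl7 at 328, 364 and 359. The 12 were chosen by p in these data, and the share of all features with this order was not counted. Apoa2 had 3.81, 288 and 141 in vehicle replicates 1 to 3 and 1.75, 0.194 and 0.944 in CORT; its difference was -4.97 ± 1.28, and -1.37 against vehicle replicate 1 alone. H2-Q10, a class Ib MHC gene, was listed at 0 in all CORT libraries and had 5.28, 184 and 66.9 in vehicle. For 14 hepatocyte genes tested, the median difference was -4.49 with all libraries and 0.10 against vehicle replicate 1 alone. The part of these transcripts in other differences was not tested.

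Tmprss6 was also called against the other times. It had values of 11.0, 8.67 and 10.9 in CORT and 21.6, 83.2 and 40.9 in vehicle, and its 20 h difference minus the mean of the other 5 was -2.53 ± 0.44 (limma, adjusted p = 0.0297). Against vehicle replicate 1 alone this was -1.60 ± 0.52 (limma, adjusted p = 1.0), and the 20 h difference itself was -1.02. With the second names the 20 h difference minus the mean of the others was -1.05 ± 0.66. The third feature of that test, 9530062K07Rik, a long noncoding RNA at chr6:116199408-116207993, lies under the limit of 10 and is named because it passed. It had 6.92, 6.31 and 5.39 in CORT and 1.67, 1.11 and 0.667 in vehicle, and its 20 h difference exceeded the mean of the others by 2.55 ± 0.44 (limma, adjusted p = 0.0297). Without both replicate 2 libraries the excess was 2.53 but did not pass (limma, adjusted p = 0.608), and with the second names it was 1.87 ± 0.59 (limma, adjusted p = 1.0).

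For a few of the lower genes the vehicle libraries lay closer together. Angptl7, a secreted angiopoietin-like protein, had values of 104, 79.0 and 143 in CORT and 328, 364 and 359 in vehicle. The 3 vehicle libraries were alike and all were above CORT. The ratio of means was 0.31 and the difference -1.72 ± 0.46 (limma, adjusted p = 0.396). Against vehicle replicate 1 alone it was -1.63, and with the second names -0.97. Its difference was -0.80 at 16 h and -1.39 at 24 h, and 0.61 at 12 h. Ly75, the endocytic receptor DEC-205, had 54.5, 55.9 and 54.6 against 108, 83.7 and 92.3, a difference of -0.76 ± 0.20, and -0.95 against vehicle replicate 1 alone. Rbp4, the retinol carrier of plasma, which fat and liver release, had 225, 168 and 133 against 369, 570 and 479. Its difference was -1.44 ± 0.36, and -1.10 against vehicle replicate 1 alone.

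Genes of the extracellular matrix had lower values in CORT as a group, although none passed at 20 h. All 18 collagen chain genes had negative differences, with a median of -0.50 against 0.04 over all features, and 13 were lower without overlap, against 6.05% of all features. Without both replicate 2 libraries 13 were lower, where 14.9% of all features were, and 16 had all CORT libraries below vehicle replicate 1, where 20.5% of all features did. Col1a1, the chain of the main fibrillar collagen and the gene of highest mean in the list, had 46894, 41913 and 49720 in CORT and 74458, 63166 and 57882 in vehicle, a difference of -0.49 ± 0.30 (limma, adjusted p = 0.874). Named after their values were seen, Col6a3, a chain of the beaded filaments, had 7168, 4757 and 6529 against 12596, 11524 and 13735, a difference of -1.05 ± 0.36. Col12a1, a fibril-associated chain, had 10046, 6502 and 8502 against 14429, 13913 and 15853. CORT replicate 2 was the lowest library for each of these genes.

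Matrix genes had lower values in CORT at the other times too. The collagen medians were -0.49 at 4 h, -1.10 at 8 h, -0.33 at 12 h, -0.28 at 16 h and -0.29 at 24 h, and the median difference of 20 h against the mean of the other times was -0.01. Of 18 enzymes tested that fold, crosslink or trim collagen, 9 were lower without overlap with a median of -0.34, against 6.05% of all features; the collagen chaperone Serpinh1 had 4642, 3160 and 5134 against 6037, 6806 and 7251. Among 22 elastic fibre and matrix glycoprotein genes 9 were lower without overlap, against 6.05% of all features, with a median of -0.34. That median was -0.22 without both replicate 2 libraries, -0.24 against vehicle replicate 1 alone and -0.54 with the second names. Fn1, which encodes fibronectin, had 24042, 21230 and 26872 against 33921, 32778 and 33921, a difference of -0.49 ± 0.30. Decorin (Dcn) and lumican (Lum), proteoglycans of the same fibrils, overlapped with differences of 0.15 and 0.24.

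Endothelial markers followed the same direction. All 10 had negative differences with a median of -0.44, 8 were lower without overlap, against 6.05% of all features, and none passed. With both replicate 2 libraries left out 9 were lower (14.9% of all features), and 9 had all CORT libraries below vehicle replicate 1 (20.5% of all features). Vwf, the clotting factor stored by endothelium and the highest of the list, had 1040, 932 and 839 in CORT and 1544, 1252 and 1260 in vehicle, a difference of -0.53 ± 0.19 (limma, adjusted p = 0.703). Pecam1, an adhesion molecule of endothelial junctions, had 794, 814 and 641 against 999, 979 and 1014. Their summed values were 4569, 4367 and 3561 in CORT and 5930, 5580 and 5571 in vehicle, without overlap. The median was -0.42 against vehicle replicate 1 alone and -0.52 at 24 h, and the median difference of 20 h against the other times was -0.03. Fibroblast markers had a median of -0.24 with 4 of 10 lower without overlap, again against 6.05% of all features, and their sums of 80782 to 87285 in CORT lay below the 95752 to 110180 in vehicle.

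Urothelial markers lay on the other side. Of 21, 19 had positive differences and 8 were higher without overlap, against 8.55% of all features, with a median of 0.19; none passed. Without both replicate 2 libraries 10 were higher, where 17.9% of all features were, and 12 had all CORT libraries above vehicle replicate 1, where 23% of all features did. The urothelial median was 0.34 at 4 h, 0.34 at 8 h, 0.07 at 12 h, 0.12 at 16 h and 0.02 at 24 h. For these markers the median difference of 20 h against the mean of the other times was -0.01. Krt15, a basal cell keratin named after its values were seen, had 12872, 8623 and 9714 in CORT and 7138, 6737 and 6529 in vehicle, a difference of 0.59 ± 0.20 (limma, adjusted p = 0.661). Upk3a, a uroplakin of the umbrella cell membrane, had 9144, 10360 and 9986 against 7767, 8139 and 8023. The lowest difference in the list was that of Krt14, another basal keratin, at 96.7, 18.7 and 185 against 92.8, 173 and 160, and its groups overlapped. Smooth muscle markers had a median of -0.09, and 1 of 10 was lower without overlap, against 6.05% of all features. Among mitosis genes 9 of 16 had negative and 7 positive differences, with a median of -0.22, and 7 were lower without overlap, against 6.05% of all features, including the proliferation marker Mki67 at 203, 175 and 173 against 235, 300 and 299. The mitosis median was -0.85 at 4 h, -1.43 at 8 h, -0.97 at 12 h, -0.76 at 16 h and -0.59 at 24 h, and -0.79 at 20 h with the second names. The median of the 20 h difference against the mean of the other times was 0.62.

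**Figure D5:**
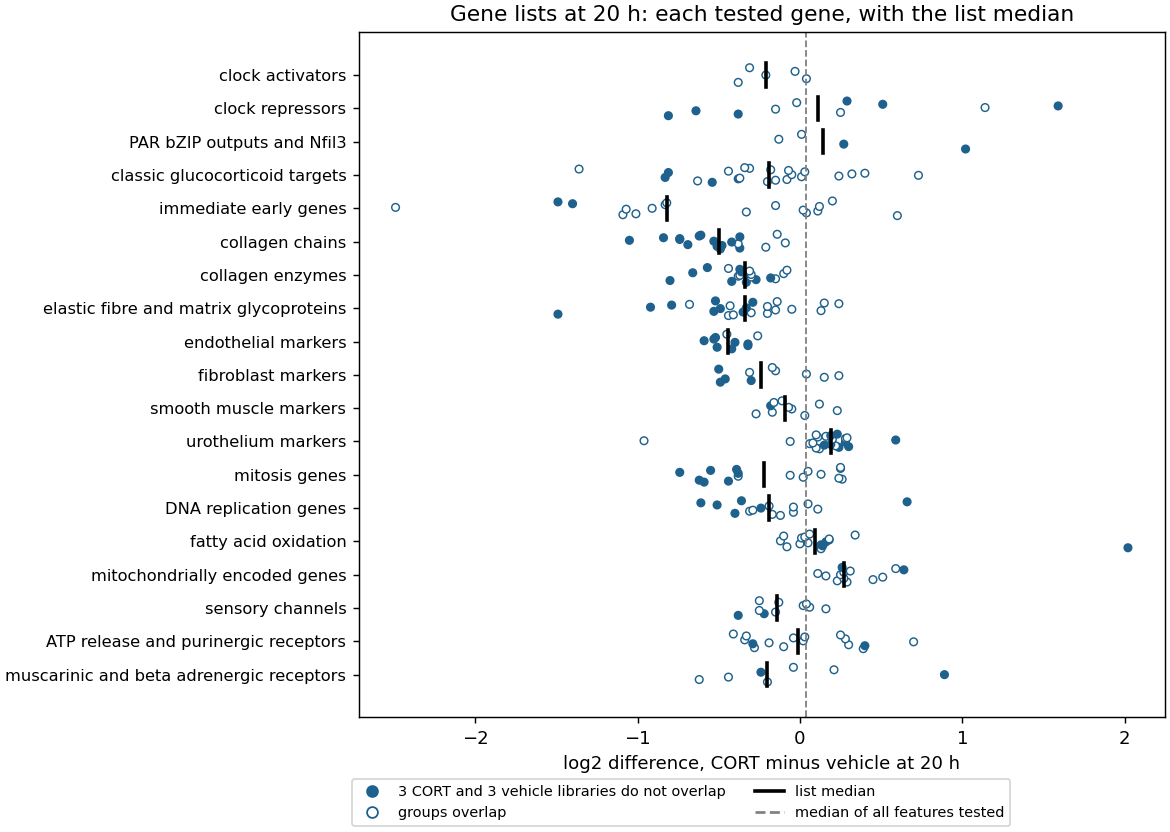
Log2 difference at 20 h, CORT minus vehicle, for each tested gene of 19 lists, filled where the 3 CORT and 3 vehicle libraries do not overlap; black bars are list medians and the dashed line the median of all features (0.04). Collagen chains (median -0.50) and endothelial markers (-0.44) lie to the left of the dashed line, urothelial markers (0.19) and mitochondrially encoded genes (0.27) to the right.

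Genes by which the bladder senses stretch and signals filling mostly overlapped between the groups. Piezo1, a mechanosensitive channel of the urothelium, had 744, 723 and 967 in CORT and 978, 1082 and 1081 in vehicle, lower in every CORT library with a difference of -0.38 ± 0.16 (limma, adjusted p = 0.751). Trpv4, another stretch-responsive channel, overlapped with a difference of 0.16 ± 0.25, and 0.05 against vehicle replicate 1 alone. Gja1, which encodes the gap junction protein connexin 43, had 870, 544 and 759 against 828, 900 and 861, a difference of -0.28 ± 0.22. Its lowest value was that of CORT replicate 2, and without both replicate 2 libraries the difference was -0.06. Slc17a9, the vesicular ATP transporter, had low values of 13.8, 8.56 and 27.8 against 11.7, 9.81 and 12.3; its difference of 0.39 ± 0.35 was -0.09 with the second names. The list medians were -0.14 for 10 sensory channels tested, -0.01 for 16 genes of ATP release and purinergic signalling and -0.20 for 7 muscarinic and beta adrenergic receptors, and none of these genes passed. In these 3 lists, 4 genes were lower and 2 higher without overlap, against 6.05% and 8.55% of all features. The muscarinic receptor genes Chrm2 and Chrm3, through which nerves contract the detrusor, had differences of -0.62 ± 0.58 and -0.44 ± 0.56, with CORT replicate 2 the lowest library for both.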

How the data were processed

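Per the labels' protocols, total RNA was depleted of rRNA and made into directional libraries; the source was whole bladder. Per the submitters' processing notes the build was mm10; the software for alignment and counting is not given in the sources used here. Deposited values are a signal for each gene: the authors had quantile normalized each table of 12 libraries by itself, with the treatments apart, so the highest features share a few set values. Further tables deposited by the authors hold log2 values of selected genes and served only to compare library names. Mean total counts per library were 11016413 in CORT and 10682675 in vehicle, and 9591304 to 12311337 by treatment and replicate number. Normalization removes the depth of each library, and values of a few units rest on few reads.

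A common quantile scale was rebuilt over all 36 libraries from 6 tables, checked on simulated data, and analysed as log2(value + 1), which understates differences of low genes. A feature was dropped where over 50% of libraries had it at their lowest value. The test was limma 3.58.1 in R 4.3.3 on 12 group means of treatment and time, 3 libraries each, two-sided, with Benjamini-Hochberg adjustment over all features and a threshold of 0.05. Named genes were the 12 of smallest p in each direction with a mean of at least 10 and no overlap (none was called), all listed clock genes except 1 that is not reported here, up to 3 genes of highest mean per list, the called features against the other times, and Nr3c1, Fkbp5, Tsc22d3, Piezo1, Trpv4, Gja1 and Slc17a9. Genes outside this rule were named after their values were seen. The comparison, the gene lists and the tests were chosen with earlier results of these data known. Alternatives changed the libraries, scale, pseudocount, filter, weights and replicate block.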

Additional observations from a re-analysis of the deposited data

Results flagged for a closer look

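For 3 features the CORT minus vehicle difference at 20 h departed from the mean difference at the other 5 times in a test of that departure itself across all features (limma, adjusted p = 0.0297 for each). The departure was 2.25 for Nr1d1, 2.55 for the long noncoding RNA 9530062K07Rik and -2.53 for Tmprss6, all on the log2 scale. Without both replicate 2 libraries of 20 h these values were 2.33, 2.53 and -1.95 and none passed (limma, adjusted p from 0.608 to 0.889). Against vehicle replicate 1 alone, the vehicle library of 20 h with the lowest hepatocyte sum, they were 2.42, 2.21 and -1.60, and none passed. With the second names that the selected-gene tables give to 8 libraries they were 1.09, 1.87 and -1.05, and none passed (limma, adjusted p = 1.0 for each).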

How the results depend on the processing

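The count at 20 h, 0 with all libraries, was 9 with the 6 libraries of 20 h alone, 1 with no filter on low values, 21 with library weights and 1 without the 8 libraries that carry a second name. Leaving out single libraries or a whole replicate number gave 0 to 68 calls, with 68 without replicate 1 and 55 without vehicle replicate 1 of 20 h. The count against the mean of the other times, 3, was 0 at a pseudocount of 0.5, 0 without both replicate 2 libraries, 0 without the 8 libraries, 0 with the other names and 0 against vehicle replicate 1 alone; leaving out libraries gave 0 to 61, with 61 without replicate 1 and 32 without vehicle replicate 1. Against 16 h the count of 0 became 1 at a minimum mean of 10, and 0 to 21 when libraries were left out, with 21 without vehicle replicate 1 and 11 without replicate 1. Against 24 h it became 1 at a pseudocount of 0.5, and 0 to 43 when libraries were left out, with 43 without replicate 1. The cause was not tested. The settings without the 8 libraries, with the other names and against vehicle replicate 1 alone were chosen after seeing the data; a vehicle arm of 1 library is assumed to vary like the other groups. The main fit did not pair samples by replicate number. Deviations of same-numbered CORT and vehicle libraries of 20 h correlated at 0.032, -0.026 and 0.052, and replicate 2 of CORT correlated best with another number. With 3 libraries a group, such correlations cannot exclude an effect shared by a replicate number. With a replicate block the counts were 0 at 20 h (1344 at an unadjusted p under 0.05) and 3 against the other times. For 49 named genes and 1122 pairs of gene and setting, 36 pairs in 9 genes had the opposite sign, with neither value called, and 18 genes were called in some alternative. With 3 libraries a group, a difference that did not pass, or whose 95% interval spans 0, is not shown to be absent.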
